A study of Mus musculus with 20 samples.

Results

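The 9 genes described here carry retinol into cells and make, break down or answer retinoic acid: *Stra6*, *Rbp4*, *Dhrs3*, *Aldh1a1*, *Aldh1a2*, *Aldh1a3*, *Aldh1a7*, *Cyp26b1* and *Rarb*. They were chosen by name from the 24411 genes of the count table, and *Stra6* and *Aldh1a1* were picked because their counts rose consistently in mutants. The mutant-to-control values of those 2 genes are therefore a description without a test, and tests of mutants against controls are given for the other 7. Kidneys were harvested at P125 from 20 mice, 5 for each combination of sex and genotype, which came from 3 litters (A, B and C). Mutants were *Pkd2*fl/fl; Pax8rtTA; TetOCre mice in which doxycycline hyclate (DOX, 50 mg/kg i.p. daily from P27 to P29) switched on Cre, and *Pkd2* encodes polycystin-2, one of the proteins lost in autosomal dominant polycystic kidney disease. The labels name the other mice only as controls, and by the methods of the study these were DOX-treated littermates without Pax8rtTA or without TetOCre. The Pax8 promoter drives the transactivator in tubule epithelium, so the deletion was aimed at tubule cells, while whole kidneys were sequenced.

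Retinol travels in blood bound to retinol-binding protein 4 (*Rbp4*, made mainly by liver and also by fat), and STRA6 is a membrane protein that passes retinol between this carrier and the cell. Inside the cell retinol is oxidized to retinaldehyde in a reversible step, which DHRS3 runs backwards, and enzymes of the ALDH1A family then oxidize retinaldehyde irreversibly to retinoic acid. Retinoic acid binds receptors such as RARβ (*Rarb*) on DNA, and CYP26 enzymes such as CYP26B1 break it down. In kidney the pathway is best known for its part in branching of the ureteric bud during development, and in the adult for the reuptake of filtered retinol-binding protein by the proximal tubule.

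Total counts per mouse ranged from 11307741 to 19324073. Levels are in CPM, counts scaled to the TMM library size, log2 fold changes are from edgeR, and a gene was called where the adjusted p of edgeR's quasi-likelihood test was under 0.01. *Pkd2* was at 250 to 332 CPM in male controls against 110 to 133 in male mutants, and at 193 to 306 in female controls against 94.7 to 182 in female mutants. The library of female mutant 4 stood apart from the other 19, with 14850 genes detected against 16776 to 17724. It had 76 genes with exactly 1 count, against 708 to 859, so low counts were scarce in it. Values without this library are given where they differ. All 9 genes passed the filter on low counts in each of the comparisons. These are whole kidneys, in which fewer cells of a type and less RNA per cell cannot be told apart.

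*Stra6* was the gene of this set with the largest mutant-to-control ratio in both sexes. It had 1.90, 1.59, 1.73, 0.649 and 1.80 CPM in male controls 1 to 5 and 19.8, 9.91, 13.8, 13.9 and 11.7 in male mutants 1 to 5. In female controls it had 3.69, 5.02, 3.42, 4.64 and 7.06 CPM, and in female mutants 16.6, 14.7, 27.02, 30.8 and 20.4. Every mutant of either sex lay above every control of either sex. The log2 fold change was 3.22 ± 0.261 (SE, 5 against 5 mice) in males and 2.24 ± 0.242 in females, and *Stra6* was higher in mutants of every litter, by 2.62 to 4.17 on the log2 CPM scale in males and by 1.51 to 2.39 in females. Its gene lies on chromosome 9 of GRCm38 from 58063788 to 58153996.

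*Rbp4*, the carrier gene, was near the lower limit of these libraries. It ranged from 0.225 to 0.974 CPM in male controls, from 0.226 to 2.60 in male mutants, from 0.273 to 4.40 in female controls and from 0 to 6.07 in female mutants. The groups overlapped, and mutants and controls did not differ beyond the spread between mice (joint log2 fold change 0.44 ± 0.670, adjusted p of edgeR 0.679). The count of 0 was in female mutant 4. By counting error alone 0 counts would allow up to 0.259 CPM (3 counts), a limit that may not hold in this library, where low counts were scarce. The mouse with the highest *Rbp4*, female mutant 3, also had the highest summed CPM of 5 adipose markers (103 CPM), and female control 5, with the next highest *Rbp4*, had 31.0 CPM of them. Male mutant 5, with the third highest *Rbp4*, had 2.54 CPM of them, and female control 3 had 32.6 CPM of them beside 1.89 CPM of *Rbp4*. The part of fat in these *Rbp4* values was not tested.

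**Figure D1:**
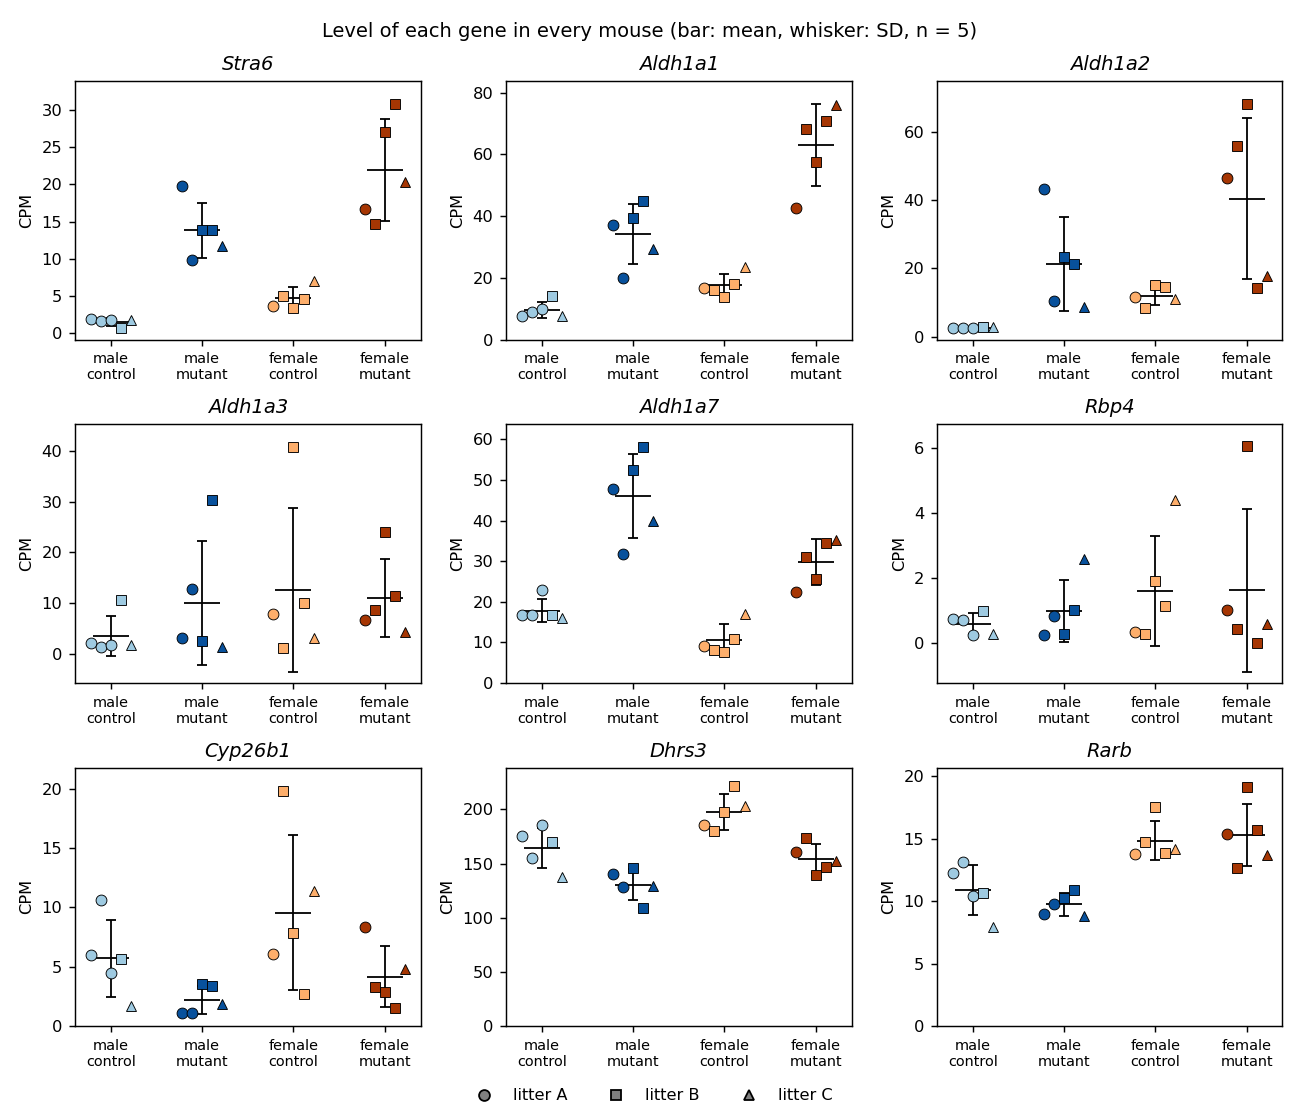
Level of each of the 9 genes in CPM (vertical axes, each panel on its own scale) in every mouse, by group. Points are mice, shapes are litters, bars are means and whiskers the SD of 5 mice. *Stra6* shows no overlap between mutants and controls, and *Aldh1a3* and *Rbp4* overlap between all groups.

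*Dhrs3*, whose enzyme reduces retinaldehyde back to retinol, had the highest level per kilobase of exon of the 9 genes in every group, from 44.6 ± 4.90 CPM per kb in male mutants to 67.5 ± 5.57 in female controls (SD, n = 5). Male controls 1 to 5 had 175, 155, 185, 170 and 137 CPM and male mutants 141, 128, 146, 109 and 129. Female controls had 185, 180, 197, 221 and 203 CPM and female mutants 161, 174, 139, 146 and 152. Every female mutant lay below every female control, and the males overlapped. *Dhrs3* fell by 0.33 on the log2 scale over both sexes (SE 0.0676, adjusted p of edgeR 0.00136), and it was lower in mutants of every litter in both sexes. Within 1 sex it was not called (log2 fold change −0.32, adjusted p of edgeR 0.0308 in males, and −0.33, adjusted p 0.0838 in females).

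In the *Aldh1a* family, *Aldh1a1*, *Aldh1a2* and *Aldh1a7* had higher levels in mutants and *Aldh1a3* did not change in a way that the test called. *Aldh1a1* had 7.61, 8.89, 10.1, 14.0 and 7.52 CPM in male controls 1 to 5 and 37.0, 20.0, 39.5, 45.0 and 29.5 in male mutants. Female controls had 16.8, 16.0, 13.9, 18.0 and 23.4 CPM and female mutants 42.6, 68.3, 57.5, 70.8 and 76.0. Within each sex the mutants stood above the controls without overlap, and female control 5 lay above male mutant 2. The log2 fold change of *Aldh1a1* was 1.71 ± 0.163 (SE) in males and 1.85 ± 0.134 in females, and it was higher in mutants of every litter of both sexes.

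*Aldh1a2*, the main retinoic acid synthase of the embryo, had 2.56, 2.48, 2.63, 3.003 and 3.02 CPM in male controls and 43.2, 10.4, 23.3, 21.2 and 8.69 in male mutants. Female controls had 11.54, 8.34, 15.03, 14.5 and 11.01 CPM and female mutants 46.3, 55.9, 68.0, 14.3 and 17.7. Male mutants were all above male controls, whereas female mutant 4 fell among the female controls. *Aldh1a2* rose in the joint comparison (log2 fold change 2.19 ± 0.327, adjusted p of edgeR 9.88e-05) and in males (2.89 ± 0.396, adjusted p of edgeR 0.00108). In females the value was 1.71 ± 0.391 (adjusted p of edgeR 0.031), and without female mutant 4 it was 1.93 (adjusted p of edgeR 0.00228).

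Summed markers of connective tissue, and also of macrophages and lymphocytes, had higher medians in mutants of each sex, as *Aldh1a2* had. The summed level of 7 fibroblast markers was 162 to 212 CPM in male controls, 291 to 805 in male mutants, 222 to 346 in female controls and 343 to 1096 in female mutants. None of the 7 was at 0 in every mouse, and 3 of them were called higher in mutants in the joint comparison, among them *Col1a1* (log2 fold change 2.05 ± 0.260, adjusted p of edgeR 2.46e-05), which encodes a chain of type I collagen. The other 4 were not called, among them *Pdgfra* (0.12 ± 0.139, adjusted p of edgeR 0.588). Within 1 sex, 2 of the 7 were called higher in males and 0 in females. The 5 mesothelium and capsule markers in the table summed to 13.9 to 27.7 CPM in male controls, 14.4 to 48.5 in male mutants, 23.4 to 36.2 in female controls and 27.7 to 75.9 in female mutants. Their ranges in mutants and controls overlapped in both sexes. Of the 4 that were tested, 3 were called higher and 1 lower in mutants. The 7 macrophage and lymphocyte markers summed to 82.6 to 95.8 CPM in male controls and 102 to 178 in male mutants. In females they summed to 99.0 to 126 CPM in controls and 106 to 261 in mutants. On log2 scales over the 20 mice, group differences included, Pearson's r with *Aldh1a2* was 0.920 for fibroblast markers. It was 0.895 for macrophage and lymphocyte and 0.870 for mesothelium and capsule markers. Among female mutants the order of the 5 mice by fibroblast sum was also their order by *Aldh1a2*, and among male mutants it was so except for mutants 3 and 4, which changed places. Every male mutant had more *Aldh1a2* and a higher fibroblast sum than every male control. The same held for the female mutants except female mutant 4, which fell among the female controls in both. The part of these cells in the levels of *Aldh1a2*, *Stra6* and *Aldh1a1* was not tested.

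**Figure D2:**
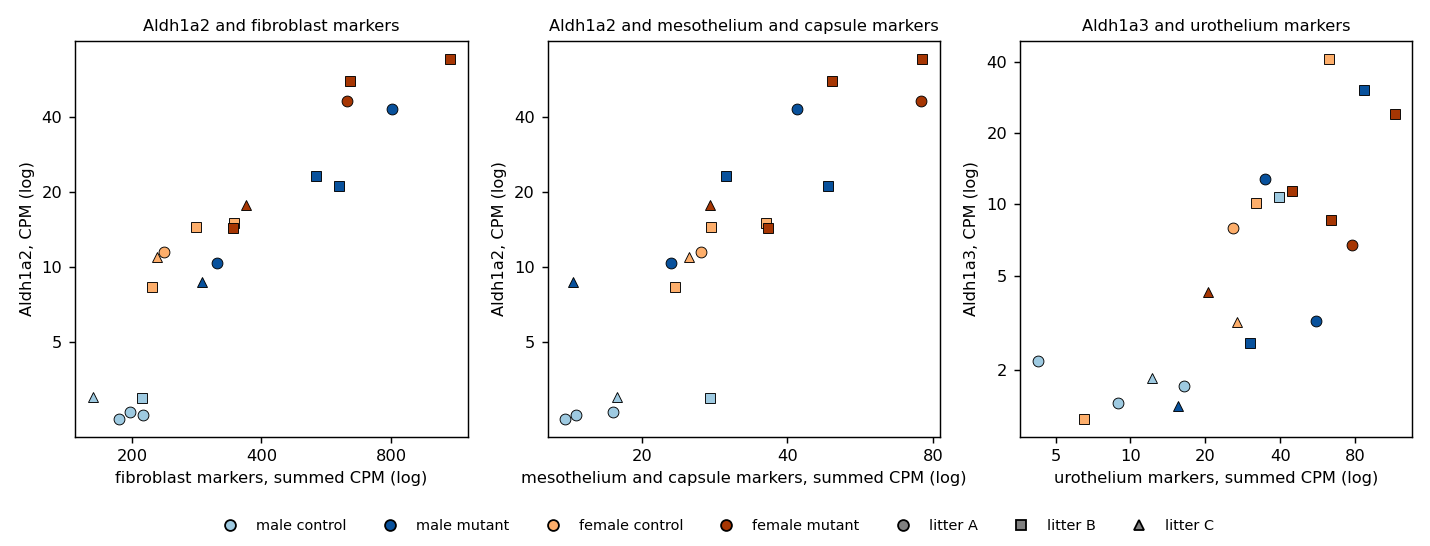
*Aldh1a2* against the summed CPM of 7 fibroblast markers and of 5 mesothelium and capsule markers, and *Aldh1a3* against that of 7 urothelium markers, each point 1 mouse and all axes logarithmic. The 5 male controls have the lowest *Aldh1a2* values, at 2.48 to 3.02 CPM, and the highest value, 68.0 CPM, lies at the highest fibroblast sum, 1096 CPM.

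*Aldh1a3*, a further retinoic acid synthase, varied widely between mice of the same group, with a coefficient of variation from 70.0% in female mutants to 127% in female controls. Male controls had 2.20, 1.46, 1.73, 10.7 and 1.86 CPM, male mutants 3.22, 12.8, 2.62, 30.4 and 1.41, female controls 7.98, 1.25, 40.8, 10.1 and 3.19, and female mutants 6.76, 8.63, 24.0, 11.4 and 4.29. The 3 highest mice, female control 3, male mutant 4 and female mutant 3, all came from litter B but from different groups. These mice had 62.8, 86.9 and 115 CPM of 7 urothelium markers, against 4.24 to 77.9 CPM in the other mice, of which female mutants 1 and 2 (77.9 and 63.7 CPM) lay above female control 3. In the joint comparison 1 of the 7 markers was called, *Krt20*, higher in mutants (log2 fold change 5.13 ± 0.628, adjusted p of edgeR 1.81e-05), and 6 were not called. Its mean was 0.128 CPM in male controls, 10.3 in male mutants, 0.348 in female controls and 8.05 in female mutants. The urothelium sums thus include a difference by genotype from this gene. The part of urothelium in the levels of *Aldh1a3* was not tested. Mutants and controls did not differ beyond this spread (joint log2 fold change 0.47 ± 0.525, adjusted p of edgeR 0.551). The value was 0.12 without male mutant 2, 0.22 without male mutant 4 and 1.02 without female control 3.

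*Aldh1a7*, a rodent paralogue of *Aldh1a1* with little or no known activity on retinaldehyde, had 16.7, 16.8, 22.9, 16.8 and 15.9 CPM in male controls and 47.8, 31.7, 52.3, 58.1 and 39.9 in male mutants. Female controls had 9.10, 8.02, 7.72, 10.9 and 17.1 CPM and female mutants 22.3, 31.0, 25.7, 34.5 and 35.3. The mutants of each sex lay above its controls without overlap. *Aldh1a7* rose in the joint comparison (log2 fold change 1.42 ± 0.119, adjusted p of edgeR 7.26e-07), in males (1.30 ± 0.151, adjusted p of edgeR 0.000543) and in females (1.55 ± 0.162, adjusted p of edgeR 0.0024). The female call was lost when any of female controls 1, 2, 3 and 4 or female mutant 1 was left out, with adjusted p of edgeR from 0.0113 to 0.0142 and log2 fold changes of 1.45 to 1.61.

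*Aldh1a1* and *Aldh1a7* lie near each other on chromosome 19 of GRCm38, from 20492715 to 20643465 on the plus strand and from 20692953 to 20727562 on the minus strand. Their coding sequences, both of 1503 bases in the GENCODE vM21 annotation, were 91.9% identical over 1501 aligned bases, against 69.7% to 71.8% for the other pairs of the 4 *Aldh1a* genes. Of the 75-base windows of the *Aldh1a1* coding sequence, 3.5% were also found in *Aldh1a7*, and the longest shared run was 100 bases. Reads from such stretches could have been counted on either gene or dropped, since the handling of reads with several matches is not given in the sources used here. The 150 bases before a start of each gene (RefSeq, GRCm38.p6) are shown because the resemblance extends there, with 88.5% identity over 139 aligned bases. Capitals mark the longest run of letters shared by both, 65 bases that end 30 bases before each start and hold the half-site GGGTCA on the opposite strand. The *Aldh1a1* window is chr19:20601818-20601967 (plus strand), at the second of its 2 starts in the table, and the *Aldh1a7* window is chr19:20727557-20727706 (minus strand).
Aldh1a1: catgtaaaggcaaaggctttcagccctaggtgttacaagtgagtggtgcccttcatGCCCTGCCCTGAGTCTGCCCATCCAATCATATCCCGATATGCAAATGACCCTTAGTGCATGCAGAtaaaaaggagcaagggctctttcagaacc
Aldh1a7: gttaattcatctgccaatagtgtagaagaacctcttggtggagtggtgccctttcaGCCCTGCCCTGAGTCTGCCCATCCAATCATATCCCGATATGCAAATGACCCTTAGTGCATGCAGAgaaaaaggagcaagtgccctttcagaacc

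The balance between the counts of these paralogues differed by sex. The log2 ratio of *Aldh1a1* to *Aldh1a7* counts was 0.78 ± 0.208 (SD, n = 5) in female controls and −0.92 ± 0.380 in male controls. In mutants it was 1.08 ± 0.0940 in females and −0.45 ± 0.125 in males. All 10 females had more *Aldh1a1* than *Aldh1a7* counts and all 10 males had fewer. The female-minus-male difference was 1.70 in controls and 1.53 in mutants. Within litters A, B and C it was 1.97, 1.12 and 1.53 in controls and 1.45, 1.502 and 1.54 in mutants. This ratio was chosen after the values of both genes were seen, so it is a description without a test. Once the mean of each group was subtracted, *Aldh1a1* and *Aldh1a7* log2 CPM still varied together over the 20 mice (Pearson r = 0.792, or 0.786 without female mutant 4). This is a description of mice that share 3 litters, and of genes for which the reads from their shared stretches may not be told apart.

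**Figure D3:**
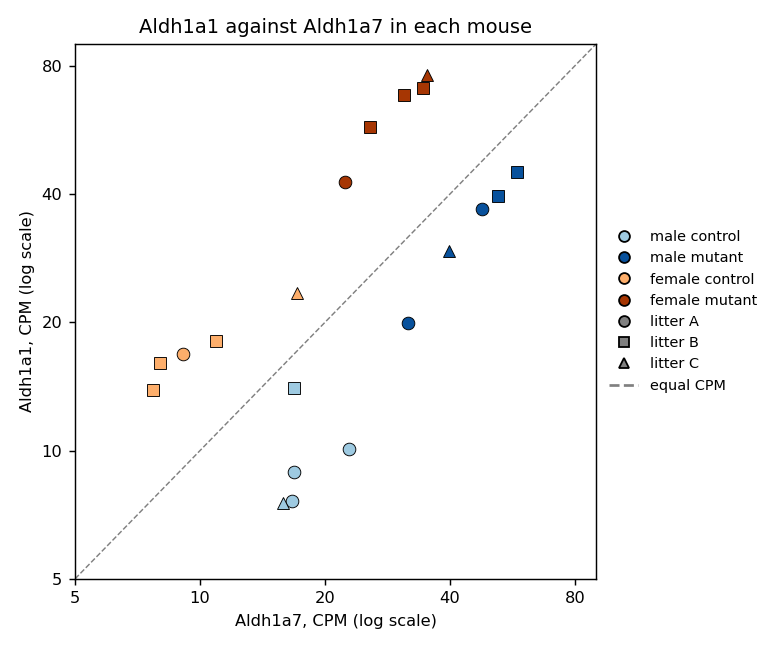
*Aldh1a1* against *Aldh1a7* in CPM on log axes, each point 1 mouse, with colours for groups and shapes for litters. The 10 females lie above the line of equal CPM and the 10 males below it, and mutants of both sexes lie farther along it than their controls.

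*Cyp26b1*, whose enzyme inactivates retinoic acid, had lower mean levels in mutants of both sexes, which edgeR did not call. Male controls 1 to 5 had 5.9997, 10.6, 4.51, 5.68 and 1.74 CPM and male mutants 1.07, 1.09, 3.54, 3.37 and 1.86. Female controls had 6.07, 19.8, 7.84, 2.68 and 11.4 CPM and female mutants 8.32, 3.30, 2.88, 1.55 and 4.82. The groups overlapped in both sexes, with male control 5 among the male mutants and female mutant 1 among the female controls. The joint log2 fold change was −1.39 ± 0.377 and lay just outside the threshold (adjusted p of edgeR 0.0105). With DESeq2's Wald test it was inside (−1.43, adjusted p of DESeq2 0.00209), as it was without a filter on low counts, with sex in place of sex and litter, and without any one of 5 mice (adjusted p of edgeR 0.00402 to 0.0098). It stayed outside without any one of the other mice (adjusted p of edgeR up to 0.0298, and 0.0165 without female mutant 4), and was −1.07 without female control 2. With DESeq2 size factors and with at least 10 counts in every mouse it also stayed outside (adjusted p of edgeR up to 0.0107). It was lower in mutants of 2 of the 3 litters in each sex. In males the value was −1.49 ± 0.436 (adjusted p of edgeR 0.0328, and of DESeq2 0.00143) and in females −1.30 ± 0.537 (adjusted p of edgeR 0.196), or −0.71 without female control 2.

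*Rarb* encodes a retinoic acid receptor and is itself a textbook target of retinoic acid through a response element in its promoter. The element is a direct repeat of half-sites with 5 bases between them. The 150 bases before the start (RefSeq, GRCm38.p6, chr14:16575477-16575626, minus strand) are shown for this repeat, whose half-sites GGTTCA and AGTTCA are in capitals and span bases 53 to 37 before the start.
Rarb: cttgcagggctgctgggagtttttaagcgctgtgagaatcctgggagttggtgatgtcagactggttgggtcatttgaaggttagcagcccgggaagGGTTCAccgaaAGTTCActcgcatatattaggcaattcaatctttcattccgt

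A search of both strands for the half-site AGGTCA, or its variants with the letters AGTTCA or with GGGTCA or else with GGTTCA, found at least 1 in 43.7% of 32851 promoters of 300 bases (250 before to 50 after a start), and a direct repeat with 5 bases between them, which is made of these same half-sites, in 0.0974%. Promoters were listed for 8 of the 9 genes, with 15 starts, and 5 of the 15 windows held a half-site, 1 each of *Stra6*, *Aldh1a1*, *Aldh1a7*, *Rbp4* and *Rarb*. Of the members *Rarb* alone had the repeat in these windows. A match of letters is not evidence of binding.

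*Rarb* had 12.2, 13.2, 10.4, 10.6 and 7.91 CPM in male controls, 8.93, 9.77, 10.3, 10.9 and 8.80 in male mutants, 13.8, 14.7, 17.5, 13.9 and 14.2 in female controls, and 15.3, 12.6, 19.1, 15.7 and 13.7 in female mutants. Mutants and controls overlapped in both sexes, and the joint log2 fold change was −0.04 ± 0.0925 (adjusted p of edgeR 0.791). In the annotation 38.4% of the exon bases of *Rarb* also belong to exons of *Top2b* or *Gm48162* on the opposite strand, and whether counting used strand is not given in the sources used here, so part of these counts may belong to those genes.

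Of the 7 genes not picked for their rise, 3 were called in the joint comparison, *Aldh1a2* and *Aldh1a7* higher and *Dhrs3* lower. Over all 14191 genes tested, 15.9% were called, 10.0% higher and 5.86% lower. In males 2 of the 7 were called, *Aldh1a2* and *Aldh1a7*, both higher, where 8.46% of all genes were called (5.25% higher and 3.20% lower). In females 1 of the 7 was called, *Aldh1a7*, higher, where 0.637% of all genes were called (0.457% higher and 0.180% lower). Without female mutant 4 the share of all genes called in females was 5.93%, and both *Aldh1a2* and *Aldh1a7* were called. The median joint log2 fold change was 0.44 over the 7, which is the value of *Rbp4* itself and ran from −0.48 to 0.83 for that gene with 1 mouse left out, and −0.01 over all genes. The joint call of these 3 genes was kept when any of the 20 mice was left out, and the joint count then lay between 3 and 4.

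**Figure D4:**
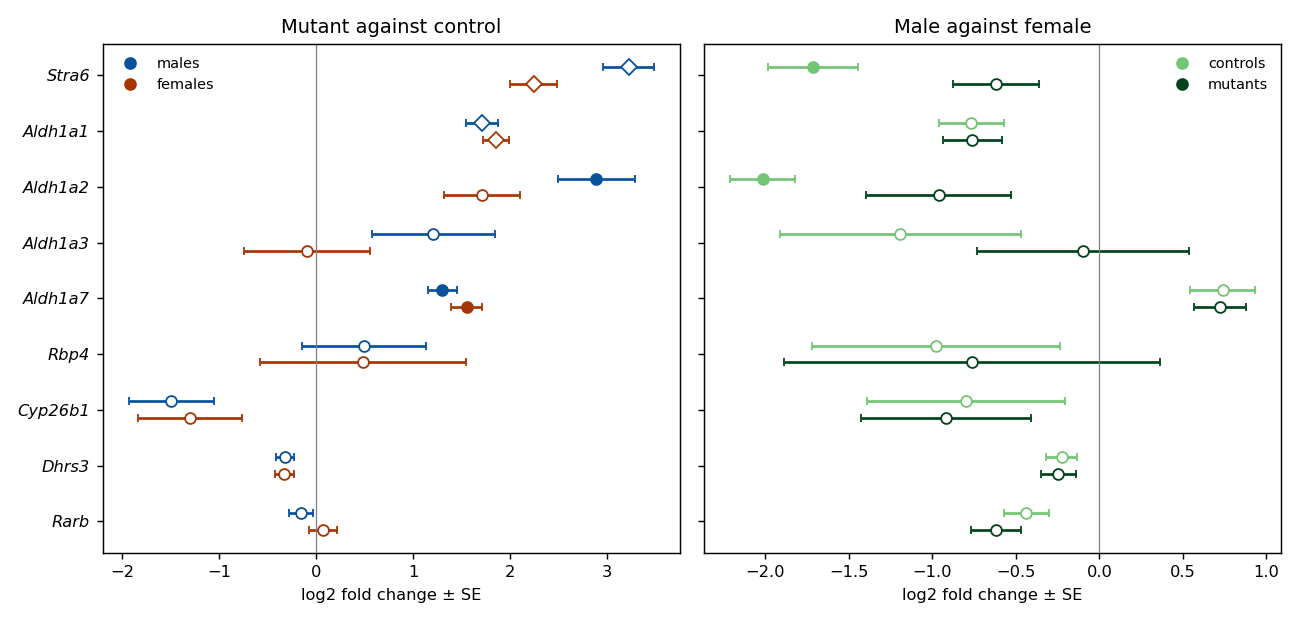
Log2 fold change (horizontal axes) with its SE for each gene, mutants against controls in each sex on the left and males against females in each genotype on the right, where positive means higher in males. Filled circles passed the threshold, open circles did not, and diamonds mark *Stra6* and *Aldh1a1*, which were not tested against genotype. *Aldh1a7* is the only gene with filled circles in both sexes on the left.

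Sex differences were tested for all 9 genes, since *Stra6* and *Aldh1a1* were picked by their rise in mutants and not by a sex difference. The genes and tests were still chosen with earlier results of these data known. In controls *Stra6* was lower in males by a log2 fold change of −1.71 ± 0.270 (adjusted p of edgeR 0.000543) and *Aldh1a2* by −2.02 ± 0.194 (adjusted p of edgeR 1.15e-05), and males and females did not overlap for either gene. Both were lower in males in every litter, by −2.51 to −1.04 for *Stra6* and −2.12 to −1.82 for *Aldh1a2* on the log2 CPM scale. These were 2 of 9 genes, where 17.8% of 14123 genes were called (8.75% higher and 9.02% lower in males). *Aldh1a1* (−0.77 ± 0.195, adjusted p of edgeR 0.0108) and *Aldh1a7* (0.74 ± 0.194, adjusted p of edgeR 0.013) lay just outside the threshold on opposite sides of 0, and DESeq2 called both (adjusted p 0.00215 and 0.00123). *Rarb* was at −0.44 ± 0.134 (adjusted p of edgeR 0.0275), without overlap between the sexes. Markers of several cell types differed in the same direction as *Stra6* and *Aldh1a2*, with 6 of 6 endothelial, 5 of 5 podocyte, 7 of 8 thick ascending limb and distal tubule and 2 of 7 fibroblast markers called lower in males. The podocyte markers summed to 252 to 395 CPM in male controls and 484 to 624 in female controls, and the endothelial markers to 300.5 to 360.1 and 445 to 526. Of the 10 proximal tubule markers 5 were called higher in males and 5 were not called. The part of these cells in the sex differences was not tested.

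In mutants none of the 9 genes was called between the sexes by edgeR, where 5.42% of 14416 genes were called (3.59% higher and 1.84% lower in males). At an unadjusted p under 0.05 edgeR listed 6 of the 9, beside 4399 of the 14416 genes. DESeq2's Wald test called 3, where it called 9.84% of all genes, *Aldh1a1* (log2 fold change −0.75, adjusted p of DESeq2 0.000943), *Aldh1a7* (0.73, adjusted p of DESeq2 0.000229) and *Rarb* (−0.61, adjusted p of DESeq2 0.0034). The edgeR value of *Aldh1a7* was 0.72 ± 0.153 (adjusted p of edgeR 0.0118), and without female mutant 4 it was 0.76 (adjusted p of edgeR 0.00996). *Stra6* was at −0.62 ± 0.257 (adjusted p of edgeR 0.134) and *Aldh1a2* at −0.96 ± 0.433 (adjusted p of edgeR 0.162), with overlap of the sexes for both. *Rarb* was lower in every male mutant than in every female mutant (−0.62 ± 0.148, adjusted p of edgeR 0.0199).

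The change from control to mutant was compared between the sexes with an interaction term. Of the 7 genes not picked for their rise none was called by edgeR or by DESeq2, none had an unadjusted p under 0.05 with edgeR, and 0% of 14820 genes were called by edgeR. *Aldh1a2* had a change larger in males by 1.21 ± 0.610 on the log2 scale (unadjusted p of edgeR 0.0644, adjusted p 1), which was 0.42 without male mutant 1. As a description without a test, the change of *Stra6* was larger in males by 1.01 ± 0.381 and that of *Aldh1a1* differed by −0.11 ± 0.222. A difference in response between the sexes was thus not detectable for the 7 genes.

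Compared per kilobase of exon, the family members ranked differently in the groups. The length was that of all annotated exons of a gene merged, whichever transcripts the kidney makes. It was 4937 bases for *Aldh1a1*, 2264 for *Aldh1a2*, 4617 for *Aldh1a3* and 2066 for *Aldh1a7*, although the coding sequences of *Aldh1a1* and *Aldh1a7* both have 1503. The ranks depend on these lengths, and every female had more *Aldh1a1* than *Aldh1a7* counts. In male controls *Aldh1a7* had 8.63 ± 1.39 CPM per kb (SD, n = 5), above *Aldh1a1* with 1.95 ± 0.542, *Aldh1a2* with 1.21 ± 0.113 and *Aldh1a3* with 0.778 ± 0.864, where the last 2 did not differ beyond their spread. In female controls *Aldh1a2* had 5.33 ± 1.21, *Aldh1a7* 5.11 ± 1.86, *Aldh1a1* 3.57 ± 0.722 and *Aldh1a3* 2.75 ± 3.50, and neighbours in this order lay within their spread. In male mutants *Aldh1a7* stood at 22.3 ± 5.03, above *Aldh1a2* with 9.43 ± 6.09 and *Aldh1a1* with 6.92 ± 1.97. In female mutants *Aldh1a2* had 17.9 ± 10.4, *Aldh1a7* 14.4 ± 2.72 and *Aldh1a1* 12.8 ± 2.68, again within their spread. *Stra6* per kilobase went from 0.263 ± 0.0871 in male controls to 2.37 ± 0.642 in male mutants and from 0.818 ± 0.247 in female controls to 3.76 ± 1.17 in female mutants.

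Most of the other tested genes of retinoid handling were not called between mutants and controls. Of 61 further genes in 7 lists (uptake and transport, esters and carotenoids, retinol and retinaldehyde conversion, oxidation to retinoic acid, breakdown, receptors, and responsive genes), 47 were tested in the joint comparison, 6 were called higher and 3 lower, beside 10.0% higher and 5.86% lower over all genes, so the lists are not set apart by these counts. Their median log2 fold change was −0.11, against −0.01 over all genes. The largest rise was that of *Gprc5a*, a retinoic acid-induced receptor gene (1.48 ± 0.244, adjusted p of edgeR 0.000227). *Bco1*, whose enzyme cleaves carotene to retinaldehyde, rose by 0.78 ± 0.163 (adjusted p of edgeR 0.00161), and *Fabp5*, a fatty acid-binding protein that can also carry retinoic acid, by 0.76 ± 0.142 (adjusted p of edgeR 0.000671). *Rdh10*, the main retinol dehydrogenase of the embryo, rose by 0.42 ± 0.0750 (adjusted p of edgeR 0.000442). The remaining rises were *Rarres2* (0.55, adjusted p of edgeR 0.0027), which encodes chemerin, and *Tgm2* (0.31, adjusted p of edgeR 0.00339), a transglutaminase. The genes that fell were *Rdh16* (−0.39, adjusted p of edgeR 0.00367), a retinol dehydrogenase, *Cyp2s1* (−0.33, adjusted p of edgeR 0.00451), a cytochrome P450, and *Pnpla2* (−0.26, adjusted p of edgeR 0.00874), a lipase.

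Of the 12 tested responsive genes 3 were called, all higher (*Gprc5a*, *Rarres2* and *Tgm2*). *Cyp26a1*, which has known response elements, was not called (0.05 ± 0.355, adjusted p of edgeR 0.939). Its error was wide and it did not pass the filter on low counts in males, so a change in it could have been missed. Of the 14 tested genes of retinol and retinaldehyde conversion 1 rose and 1 fell. Of the receptors, *Rara* was at 0.23 (adjusted p of edgeR 0.0179) and *Rarg* at 0.30 (adjusted p of edgeR 0.0231), outside the threshold. Between control males and females 10 of 47 genes were called higher and 8 lower in males, beside 8.75% higher and 9.02% lower over all genes, with a median log2 fold change of −0.06. Whether the lists differ from other genes was not tested.

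The markers of several nephron segments were lower in mutants, as *Dhrs3* was. The 8 markers of thick ascending limb and distal tubule summed to 6791 to 7265 CPM in male controls against 4576 to 5375 in male mutants, and to 9330 to 10426 in female controls against 5002 to 6970 in female mutants, and 6 of the 8 were called lower. The 5 podocyte markers summed to 252 to 395 CPM in male controls, 232 to 335 in male mutants, 484 to 624 in female controls and 367 to 458 in female mutants, and 3 of the 5 were called lower. The part of these segments in the levels of *Dhrs3* and *Cyp26b1* was not tested. In the joint comparison 6 of 10 collecting duct markers and 1 of 10 proximal tubule markers were called lower, 4 of 7 macrophage and lymphocyte markers and 1 of 5 tested liver markers higher, and 2 of 6 tested thin limb markers higher and 1 lower. The 6 endothelial markers had a median log2 fold change of 0.04, and the single tested adrenal and adipose markers had −0.23 and −0.30.

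Kidney size among the mutants was described by KBW, the given kidney weight as a percentage of body weight. Male mutants had a KBW of 1.68% ± 0.338 (SD, n = 5) and female mutants one of 1.18% ± 0.261, against 0.692% ± 0.117 and 0.615% ± 0.0448 in controls. Over the 10 mutants none of 9 relations between log2 CPM and KBW passed an adjusted p under 0.05 (permutation tests, two-sided, Benjamini-Hochberg over 9), none had an unadjusted p under 0.05, and Spearman's rho gave none either. For *Stra6* Pearson's r was −0.295 (rho −0.346, permutation p = 0.41, adjusted p = 0.591), for *Aldh1a1* −0.474 (rho −0.576, permutation p = 0.166, adjusted p = 0.497) and for *Aldh1a2* 0.224 (rho 0.212, permutation p = 0.533, adjusted p = 0.591). Without male mutant 1 and female mutant 4, whose KBW lay farthest from the median, r was −0.236, −0.360 and −0.115 for these genes. Within sex, the relation of *Stra6* and of *Aldh1a1* to KBW was positive among the 5 males and negative among the 5 females, so a value pooled over the sexes does not describe either. For *Aldh1a2*, with both measures centred within sex, r was 0.822 (exact permutation p = 0.00903, adjusted p = 0.0812). The *Aldh1a2* relation did not pass the correction.

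**Figure D5:**
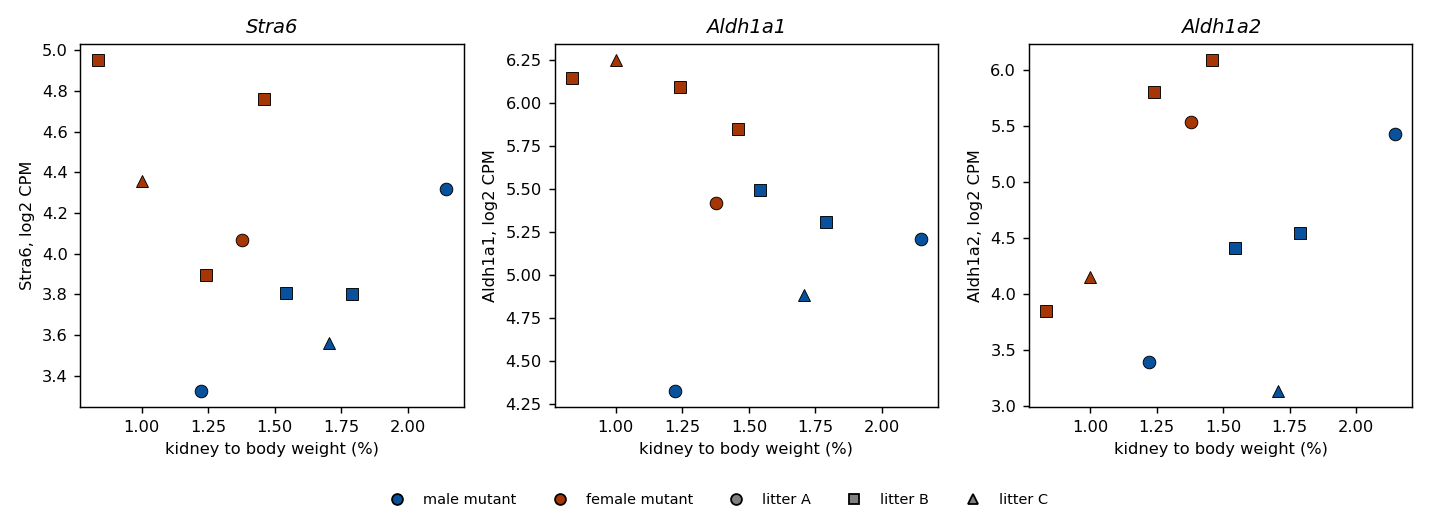
Log2 CPM of *Stra6*, *Aldh1a1* and *Aldh1a2* against KBW in percent in the 10 mutants, with colours for sex and shapes for litters. KBW of the sexes overlaps, and the mice of highest KBW within each sex, male mutant 1 and female mutant 3, also have the highest *Aldh1a2* of their sex.

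The genes whose log2 CPM was most like that of *Stra6* over the 20 mice, of 13781 genes with a mean of at least 1 CPM, were *Ptgds* (Pearson r = 0.923), *Cfi* (0.910), *Aldh1a1* (0.909), *Wdhd1* (0.909) and *Gpc3* (0.908). For *Aldh1a1* they were *Il10rb* (0.919), *Coch* (0.916), *Zfp185* (0.915), *Gpc3* (0.912) and *Stra6* (0.909). These values include the differences between the 4 groups, in which both genes were chosen to differ. With the group means subtracted the likeness of *Stra6* to its 5 genes was 0.0941 to 0.337 and none stayed among the 5 closest, while *Aldh1a7* (0.792) became the closest to *Aldh1a1*.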

How the data were processed

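Kidney RNA of 20 mice (5 per sex and genotype) was sequenced, 1 library per mouse. The processing notes of the submitters name fastp 0.23.2, STAR 2.7.10b and the mm10 build, and the deposited values are whole-number counts per gene symbol without normalization, 24411 symbols in all. The counting tool, annotation and strandedness are not given in the sources used here. Every sample column was matched to a mouse by its label, and 0 columns were left over. Mice are numbered within a group in the order of their records.

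All fits were made by edgeR 4.0.16 (R 4.3.3): TMM normalization, filterByExpr and the quasi-likelihood test with Benjamini-Hochberg adjustment over all genes tested, with litter as a covariate (the 6 groups of sex and litter in the joint and interaction fits). The threshold was an adjusted p of 0.01. Log2 CPM used a prior count of 2. The procedure was tested on simulated data. Permutation tests (100000 resamples, or exact) were made in scipy. Gene lengths (all annotated exons of a gene, merged) and overlaps were taken from GENCODE vM21 (GRCm38). Depth limits precision for *Rbp4* most, with 0 to 120 counts per mouse.

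The 9 genes, the gene lists and the tests were chosen with earlier results of these data known. Named are the 9 genes, genes of the retinoid lists called in the joint comparison (at most 12), the 5 genes most like *Stra6* and *Aldh1a1*, *Pkd2*, and markers whose list moved with a gene's groups. *Cyp26a1*, *Rara*, *Rarg*, *Pdgfra* and *Krt20* were named after their values were seen. Marker lists also covered thin limb, collecting duct, endothelium, macrophages and lymphocytes, adrenal and liver. Each mouse was left out in turn, and the other settings tried were the Wald test and size factors of DESeq2 1.42.0, filters of none and of at least 10 counts in every mouse, other covariates, and all 20 mice in 1 fit. For the *Aldh1a1* to *Aldh1a7* ratio the alternatives were chosen after seeing the data. Kidney weight was taken as that of 1 kidney, as the study plots it, and assumed to be in mg.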

Additional observations from a re-analysis of the deposited data

Results flagged for a closer look

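In 40 groups of 5 mice, made of the 9 genes and the *Aldh1a1* to *Aldh1a7* ratio in each of the 4 groups, 8 had 1 mouse far from the other 4 by Dixon's test, where chance flags about 1 in 20 groups.

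Male control 4 had 0.649 CPM of *Stra6*, against 1.59 to 1.90 in the other male controls, and 10.7 CPM of *Aldh1a3*, against 1.46 to 2.20. The log2 ratio of *Aldh1a1* to *Aldh1a7* counts in this mouse was −0.26, against −1.19 to −0.92. It was the only male control of litter B, so litter and mouse cannot be told apart. Female control 3 had 40.8 CPM of *Aldh1a3*, against 1.25 to 10.1 in the other female controls, and 17.5 CPM of *Rarb*, against 13.8 to 14.7.

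Male control 3 had 22.9 CPM of *Aldh1a7*, against 15.9 to 16.8 in the other male controls. Female mutant 3 had 6.07 CPM of *Rbp4*, against 0 to 1.01 in the other female mutants. In male mutant 2 the log2 ratio of *Aldh1a1* to *Aldh1a7* counts was −0.67, against −0.44 to −0.37.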

How the results depend on the processing

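No paired analysis was possible because the labels give animals and litters but no replicate numbers shared between groups, and litter was already a covariate. In females DESeq2's Wald test and a fit of all 20 mice each called 2 of the 7 genes in place of 1, adding *Aldh1a2*. These settings called 4.87% and 5.78% of all genes, against 0.637%. With 1 mouse left out the count lay between 0 and 2 (0.0206% to 5.93% of all genes). Between control males and females the count of 2 became 4 with DESeq2's Wald test, without a filter and without a litter term. These settings called 15.6%, 13.5% and 21.9% of all genes, against 17.8%. The count was 1 with at least 10 counts in every mouse (18.3% of all genes), a filter that *Stra6* did not pass. With 1 mouse left out it lay between 2 and 3 (8.57% to 18.6% of all genes). Between mutant males and females the count of 0 became 3 with DESeq2's Wald test, 1 without a filter and 2 with all 20 mice in 1 fit. These settings called 9.84%, 4.61% and 15.9% of all genes, against 5.42%. With 1 mouse left out the count lay between 0 and 1 (1.7% to 9.12% of all genes). The joint counts of the 7 genes and of the retinoid lists, the male count and the interaction count stayed within 1.5 times their value under every setting run, with 6 to 12 genes of the retinoid lists called when 1 mouse was left out. With 1 mouse left out the count of KBW relations lay between 0 and 1, the latter *Aldh1a1* without male mutant 2 (r = −0.833, adjusted permutation p = 0.0473).

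Of 1177 values for single genes under an alternative, 52 changed sign, none of a gene called in that comparison. With 1 mouse left out these were *Rbp4* (joint −0.48 to 0.83, males −0.34 to 0.97, females −1.51 to 1.20, sex in controls −1.71 to 0.22, sex in mutants −1.53 to 0.72, interaction −0.83 to 1.96), *Aldh1a3* (females −0.44 to 0.82, sex in mutants −1.27 to 0.27), *Rarb* (joint −0.10 to 0.0023, females −0.043 to 0.15), and in the interaction *Aldh1a1* (−0.36 to 0.046), *Cyp26b1* (−0.77 to 0.27) and *Dhrs3* (−0.085 to 0.092). Sex in mutants for *Aldh1a3* was 0.0070 with all 20 mice in 1 fit, and the *Rbp4* interaction was −0.038 with DESeq2 size factors and −0.22 with DESeq2's Wald test. Relations with KBW that changed sign within sex were those of *Stra6* (0.277), *Aldh1a1* (0.128), *Aldh1a7* (−0.0183), *Cyp26b1* (0.216), *Dhrs3* (0.356) and *Rarb* (0.0288), all but that of *Dhrs3* having opposite signs in males and females, and that of *Aldh1a2* was −0.115 without the 2 mutants of farthest KBW. With 1 mutant left out r lay between −0.529 and 0.0370 for *Stra6*, −0.191 and 0.509 for *Rbp4*, and −0.441 and 0.153 for *Cyp26b1*. In females edgeR called 92 of all genes, against 944 with DESeq2's Wald test, 856 with all 20 mice in 1 fit, 230 without a filter, 172 without a litter term, and 3 to 866 with 1 mouse left out (866 without female mutant 4). The *Aldh1a1* to *Aldh1a7* difference between the sexes lay between 1.63 and 1.86 in controls and 1.47 and 1.56 in mutants with 1 mouse left out. The cause of these changes was not tested. The counts of *Rbp4* limit what could be detected for it.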

Other observations

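Among the other retinoid genes, 10 of 47 were called higher and 8 lower in control males than in control females, and those given here were named after their values were seen. *Adh1*, an alcohol dehydrogenase that also oxidizes retinol, had 659 ± 60.9 CPM (SD, n = 5) in male controls and 150 ± 17.6 in female controls (log2 fold change 2.14 ± 0.0718, adjusted p of edgeR 1.09e-09), and 592 ± 38.7 in male mutants and 121 ± 22.6 in female mutants. *Adh7*, of the same family, had 3.97 ± 1.08 and 0.748 ± 0.252 CPM in male and female controls (2.28 ± 0.304, adjusted p of edgeR 0.000159). *Rdh10* had 88.7 ± 8.70 CPM in male and 55.5 ± 6.68 in female controls (0.80 ± 0.0828, adjusted p of edgeR 2.21e-05), whereas *Rdh16* was lower in males, with 196 ± 14.3 against 270 ± 29.2 CPM (−0.46 ± 0.0898, adjusted p of edgeR 0.00231). *Ttr*, which encodes the plasma partner of retinol-binding protein, was higher in males (1.52 ± 0.224, adjusted p of edgeR 0.000342), as were *Bco2*, whose enzyme cleaves carotenoids (1.046 ± 0.0989, adjusted p of edgeR 1e-05), and *Lpl*, a lipase gene (0.98 ± 0.213, adjusted p of edgeR 0.00454). *Rarres1*, a retinoic acid-responsive gene, was lower in males (−1.45 ± 0.339, adjusted p of edgeR 0.00684). It was near the lower limit of these libraries, with 0.548 ± 0.171 CPM in male controls and 1.58 ± 0.409 in female controls. These were 6 to 11 and 20 to 37 counts per mouse.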
